A study of Mus musculus with 6 samples.

Results

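Zic1 and Zic2 are zinc finger transcription factors, and their expression is described here in the skin epithelium of Ezh1/2 2KO and Ezh1/2 WT mice. The members are all the probe sets that the platform annotation assigns to Zic1 or Zic2 and to no other gene, which gave 2 genes of 18193 on the array and 3 probe sets of 34945 that name 1 gene. Zic1 was chosen by its signals on these same 6 arrays, below background in WT and high in each 2KO population, so its difference between genotypes is given as a description. Zic2 is its paralog, and the paralogs Zic4 and Zic5 are given beside them.

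Zic proteins carry C2H2 zinc fingers closely related to those of the Gli factors, the transcription factors at the end of the hedgehog pathway. In vertebrate embryos Zic genes are active in the dorsal neural tube, at the border of the neural plate, in the developing cerebellum and in parts of the somites, and loss of Zic2 causes holoprosencephaly in humans and mice. Ezh1 and Ezh2 are the enzymes of Polycomb repressive complex 2 (PRC2), which places the H3K27 trimethyl mark on histones at silent developmental genes, often at promoters rich in CpG.

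The mice were labelled Ezh1/2 2KO or Ezh1/2 WT, all 14 days old and of mixed C57B6 and CD1 background. Each genotype gave 3 populations sorted by FACS, namely basal epidermal cells, matrix cells (the dividing cells of the hair bulb) and ORS cells (the outer root sheath of the follicle), with 1 array each, 6 in all. The 2KO basal epidermal sample came from female mice and the other 5 from both sexes, so sex and genotype cannot be told apart in that pair. The labels do not name the promoter that drove the deletion, the exons removed or the number of mice behind a sample. With 1 array a group no difference within a cell type has a replicate check, and every fold describes a pair of arrays. A fit of genotype across the 3 cell types was not run, since Zic1 was picked on that same contrast, and no p-value is given.

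The values are MAS5 signals on a linear scale, and a floor was set at the median of all signals, 83.4. A signal under the floor is called below the floor here, and where WT was below it the fold is given as "at least", since it can only be a lower bound. Genes are called higher or lower at 2-fold between 2KO and WT. In every such count, a gene below the floor in WT alone can only be higher, and one below it in 2KO alone only lower. Ezh2 read 432, 1725 and 378 on the 2KO basal epidermis, matrix and ORS arrays, against 2563, 3578 and 2151 on the WT arrays. Ezh1 read 57.4, 89.4 and 51.6 in 2KO, against 401, 317 and 380 in WT, and whether these probes lie in the deleted parts is not given. The matrix markers summed to 31032 on the 2KO and 40761 on the WT matrix arrays, and to between 886 and 2130 on the other 4. Krt35 alone read 18316 on the 2KO and 19670 on the WT matrix array. Of the others, Msx2 and Dlx3 were 2.78- and 2.21-fold lower in 2KO matrix and Shh 2.86-fold higher. Lef1 and Hoxc13 were lower there by 1.97 and 1.67 times. The basal epidermis marker Krt5 read 8423 or more on all 6 arrays, and the 5 ORS markers summed to 23020, 14774 and 37512 on the 2KO basal epidermis, matrix and ORS arrays, against 33080, 6234 and 34882 on the WT arrays. In WT that list thus barely separated ORS from basal epidermis. Its member Lhx2 read 520, 5112 and 5050 in 2KO, against 141, 2644 and 4349 in WT, and Krt15 read 18000, 5200 and 22386 in 2KO, against 28535, 2994 and 22416 in WT. Of the calls, 61.7%, 84.8% and 63.2% were higher in 2KO in basal epidermis, matrix and ORS. Scaling to a common median turned these shares into 52.3%, 55.3% and 38.9%, and scaling to the hybridisation controls into 52.3%, 17.9% and 48.9%, so every fold is relative to the scaling of its array.

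Promoter windows of Zic1, Zic4 and Zic5 are shown because Zic1 and Zic4 are neighbours on chromosome 9 that read differently on these arrays. Of the 4 Zic genes 3 matched a window in the RefSeq table used, and Zic2 is named only. The windows run from 250 bases before to 50 bases after each start in RefSeq on GRCm38.p6, 5′ to 3′ on the gene's strand, and capitals mark each CpG. The window of Zic1 is chr9:91365719-91366018 on the minus strand, that of Zic4 is chr9:91368722-91369021 on the plus strand, and that of Zic5, which lies near Zic2, is chr14:122465609-122465908 on the minus strand.
Zic1: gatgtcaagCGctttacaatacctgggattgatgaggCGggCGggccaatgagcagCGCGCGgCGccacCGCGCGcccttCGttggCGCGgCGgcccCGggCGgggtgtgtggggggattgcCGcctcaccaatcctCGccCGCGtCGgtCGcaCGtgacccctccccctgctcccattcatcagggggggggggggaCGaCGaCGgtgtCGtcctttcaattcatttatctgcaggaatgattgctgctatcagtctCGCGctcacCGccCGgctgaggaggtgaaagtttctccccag
Zic4: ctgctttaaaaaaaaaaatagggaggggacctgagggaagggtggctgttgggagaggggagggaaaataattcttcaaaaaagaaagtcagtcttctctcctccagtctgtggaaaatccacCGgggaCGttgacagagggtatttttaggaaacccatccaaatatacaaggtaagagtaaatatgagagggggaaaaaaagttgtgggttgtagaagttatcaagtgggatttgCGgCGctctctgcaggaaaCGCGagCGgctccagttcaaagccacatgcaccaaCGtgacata
Zic5: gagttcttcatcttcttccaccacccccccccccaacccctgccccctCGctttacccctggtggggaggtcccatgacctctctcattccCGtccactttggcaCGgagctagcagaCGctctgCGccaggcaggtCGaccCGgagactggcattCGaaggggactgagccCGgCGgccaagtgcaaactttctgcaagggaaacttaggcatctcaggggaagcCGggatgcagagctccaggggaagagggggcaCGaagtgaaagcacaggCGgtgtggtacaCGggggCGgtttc
The motif counted was CG, which reads the same on both strands. The Zic1 window holds 31 CpG, and 10.6% of 32851 promoter windows of that length hold at least as many. The Zic5 window holds 15, a number reached by 34.6% of windows, and the Zic4 window holds 8, reached by 48.6%, where the median window holds 7. Zic1 and Zic4 lie on opposite strands and are transcribed away from each other. These counts describe the sequence only, and H3K27 methylation was not measured on these arrays.

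Zic1 was high on every 2KO array and below the floor on every WT array. Its brighter probe set, 1423477_at, read 2775 in 2KO basal epidermis, 2490 in 2KO matrix and 3656 in 2KO ORS, against 47.6, 24.1 and 31.6 on the matching WT arrays. The lowest 2KO signal lay far above the highest WT signal, which goes back to how this gene was chosen. Of the 6553 genes below the floor on all 3 WT arrays, 178 (2.72%) were at or above it on all 3 2KO arrays.

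Zic1 was at least 33.3-fold higher in 2KO basal epidermis, at least 29.8-fold in matrix cells and at least 43.8-fold in ORS cells. By that fold it ranked 1 among the 11525 genes measured in basal epidermis, 2 among 11651 in matrix cells and 2 among 11984 in ORS cells, a rank that goes back to how this gene was chosen. Over all measured genes, 6.59%, 9.03% and 8.17% were at least 2-fold higher in 2KO basal, matrix and ORS cells, and 1.17% of all 18193 genes were so in each of the 3. Since a gene below the floor in WT could only be measured through a higher 2KO signal, the direction for Zic1 follows from its WT level. In RNA of whole sorted populations, more cells with the transcript and more transcript per cell cannot be told apart.

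The dimmer Zic1 probe set, 1439627_at, read 413 in 2KO basal epidermis, 377 in 2KO matrix and 651 in 2KO ORS, against 18.3, 10.1 and 1.18 in WT. It showed the same separation of genotypes as the brighter one, and its folds were at least 4.94, 4.52 and 7.80. Each bound is the 2KO signal over the same floor, so the dimmer probe set has the smaller bounds. Without a floor its folds were 22.5, 37.2 and 552, against 58.3, 103.3 and 115.8 for the brighter one. Those folds divide by WT signals that have no reliable order.

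Zic2 was also above the floor on the 2KO arrays alone, with bounds near the 2-fold line. Its 1 probe set, 1421301_at, read 196 in 2KO basal epidermis, 157 in 2KO matrix and 146 in 2KO ORS, against 5.56, 3.51 and 2.44 in WT. Zic2 was thus 1 of the 178 genes (2.72% of 6553) below the floor on all 3 WT arrays and at or above it on all 3 2KO arrays. Within single pairs, 11.6%, 15.7% and 13.7% of the genes below the floor in WT were at or above it in 2KO basal, matrix and ORS cells. Zic2 was at least 2.34-fold higher in 2KO basal epidermis, past the 2-fold line, and at least 1.89-fold and at least 1.75-fold higher in matrix and ORS, which do not reach it. The WT signals of Zic2 lay far under the floor, so its bounds depend on where the floor is set.

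**Figure D1:**
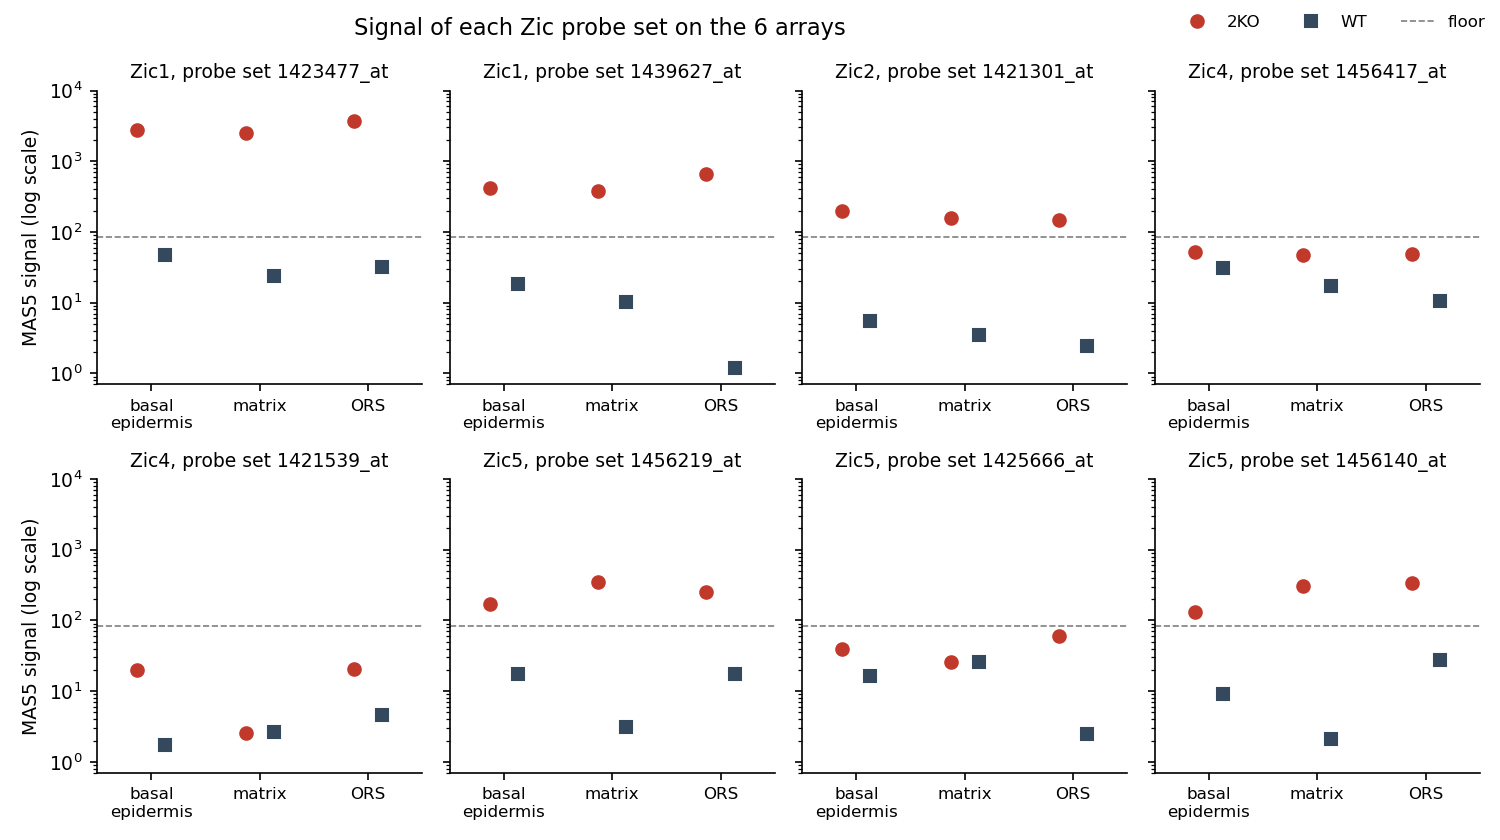
MAS5 signal on a log scale of the 8 probe sets of Zic1, Zic2, Zic4 and Zic5 in basal epidermis, matrix and ORS, with 1 point per array (2KO circles, WT squares) and the floor of 83.4 as a dashed line. Both Zic1 probe sets, the Zic2 probe set and 2 of the 3 Zic5 probe sets lie above the floor on all 3 2KO arrays, and 0 of the 8 lie above it on a WT array. Of all probe sets, 47.7% to 49.9% were at or above it on a WT array and 48.9% to 53.1% on a 2KO array.

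At the floor used, the paralogs split into those above it in 2KO and those below it on all arrays. Over these 4 Zic genes 5 of 8 probe sets were above the floor on all 3 2KO arrays and 0 of 8 on any WT array, where signals ranged from 1.18 to 47.6. Of all probe sets, 48.9%, 51.8% and 53.1% were at or above it on the 2KO basal epidermis, matrix and ORS arrays. On the WT arrays these shares were 47.7%, 48.5% and 49.9%. Both Zic1 probe sets are among the 5, and Zic1 was picked for this pattern. Zic5, which lies near Zic2 on chromosome 14, read 170 in 2KO basal epidermis, 348 in 2KO matrix and 252 in 2KO ORS with its brightest probe set, 1456219_at, against 17.7, 3.06 and 17.7 in WT. A further Zic5 probe set, 1456140_at, read 134, 309 and 337 in 2KO, against 9.15, 2.11 and 27.1 in WT, and the other one, 1425666_at, was below the floor on all 6 arrays. The folds of the brightest were at least 2.04, 4.17 and 3.02, and the fold in basal epidermis was 1.86 after scaling to the hybridisation controls and 1.98 after loess. Those of 1456140_at were at least 1.60, 3.70 and 4.04. The probe sets of Zic5 therefore disagree, and the annotation does not say which transcripts each one reads.

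Zic4, the neighbour of Zic1, was below the floor on all 6 arrays with both probe sets. Its brighter one, 1456417_at, read 52.3, 47.0 and 48.9 on the 2KO arrays, against 30.7, 17.1 and 10.5 on the WT arrays, and it stayed below the floor under the 4 other scalings. No fold is given for it. Its 2KO signals and its WT basal epidermis signal were above the 25th percentile of all signals (21.2), so its place depends on where the floor is set. Signals below the floor have no reliable order here, and a low transcript level and a probe set that binds poorly cannot be told apart.

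**Figure D2:**
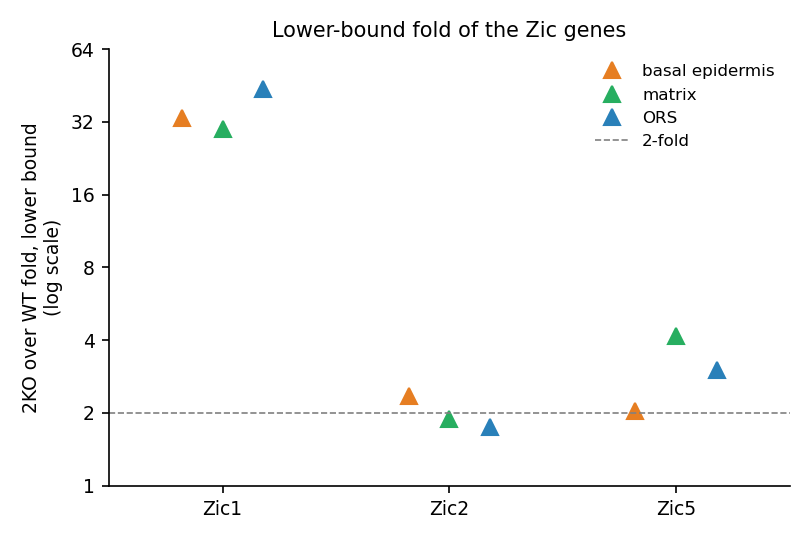
Lower bounds of the 2KO over WT fold (log scale) for Zic1, Zic2 and Zic5, each by its brightest probe set, in basal epidermis, matrix and ORS, 1 pair of arrays each, with the 2-fold line dashed. Zic1 lies between 29.8 and 43.8, Zic2 between 1.75 and 2.34 and Zic5 between 2.04 and 4.17, and Zic4 has no fold because both genotypes were below the floor.

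Among the 2KO populations Zic1 was brightest in ORS, then basal epidermis, then matrix, with both probe sets. The signal of 1423477_at was 1.32 times as high in 2KO ORS as in 2KO basal epidermis, 1.11 times as high in 2KO basal epidermis as in 2KO matrix, and 1.47 times as high in 2KO ORS as in 2KO matrix. Of measured genes, 46.9%, 76.9% and 35.3% had a larger gap, in either direction, between the same arrays. Zic2 had another order, with basal epidermis first. Its signal in 2KO ORS was 0.746 times that in 2KO basal epidermis, a gap exceeded by 44.5% of genes, and 0.928 times that in 2KO matrix, exceeded by 84.9%. Matrix and ORS changed places for Zic2 after scaling to the hybridisation controls (138 in ORS and 134 in matrix), while the order of Zic1 was the same under the 4 other scalings. With 1 array a population no neighbours in these orders can be said to differ. In WT all 3 populations were below the floor for both genes, so no order is given.

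The pattern of Zic1, below the floor in WT and bright in 2KO, was set beside that of other genes below the floor in WT. Of 6553 genes below the floor on all 3 WT arrays, 178 (2.72%) were at or above it on all 3 2KO arrays, and 41 (0.626%) were at least 2-fold above it on all 3. Ranked by the smallest of the 3 fold bounds, Zic1 came first among the 6553 (at least 29.8), followed by Cdkn2a, the INK4/ARF cell cycle inhibitor gene (at least 15.05), and Foxd1, a forkhead factor (at least 10.03). The first place of Zic1 goes back to how it was chosen and is a description only. Zic5 ranked 40 and Zic2 ranked 53, so that Zic5 was among the 41 and Zic2 among the 178. Zic5 was among the 41 by a bound of 2.04 in basal epidermis. That bound was 1.86 after scaling to the hybridisation controls, 1.98 after loess and 1.60 with probe set 1456140_at. In the other direction, of 5872 genes below the floor on all 3 2KO arrays, 19 (0.324%) were at or above it on all 3 WT arrays and 2 (0.0341%) were at least 2-fold above it. Taken pair by pair, 3.26%, 4.18% and 4% of the genes below the floor in WT were at least 2-fold above it in 2KO in basal epidermis, matrix and ORS, against 0.908%, 0.338% and 1.24% in the other direction.

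The genes beside Zic1 and Zic2 on their chromosomes were read on the same arrays. The order of genes came from RefSeq on GRCm38.p6, up to 4 genes with a probe set were taken on either side, and 14 of these were not Zic genes. Of the 14, 5 were below the floor on all 6 arrays, 2 of 9 measured were higher in 2KO basal epidermis, 1 of 8 in matrix cells and 2 of 8 in ORS cells, and 0 were lower in each. Among all measured genes, 6.59%, 9.03% and 8.17% were higher and 4.09%, 1.62% and 4.75% lower in these populations. Of all 18193 genes, 6553 were below the floor on all 3 WT arrays and 5872 on all 3 2KO arrays. Beside Zic1, Plscr1, which encodes a phospholipid scramblase, read 1139, 210 and 1667 in 2KO, against 438, 119.5 and 539 in WT, with folds of 2.60, 1.76 and 3.10. Plscr1 was thus already above the floor in WT, unlike Zic1. Ctsh, the gene of cathepsin H, was 4.71-fold higher in matrix (799 in 2KO, against 170 in WT) and Rasgrf1, a Ras exchange factor, 3.79-fold higher in ORS (401 in 2KO, against 106 in WT). Beside Zic2, Ggact read 190 in 2KO basal epidermis, against 82.8 in WT, at least 2.28-fold higher, and Pcca, Clybl and Tmtc4 lay within 2-fold in each population. Of these 14, 0 combined a WT signal below the floor with a fold of at least 2 in all 3 populations. Of the 6553 genes below the floor on all 3 WT arrays, 41 (0.626%) did so. A count of 0 of 14 thus does not show where the difference ends.

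**Figure D3:**
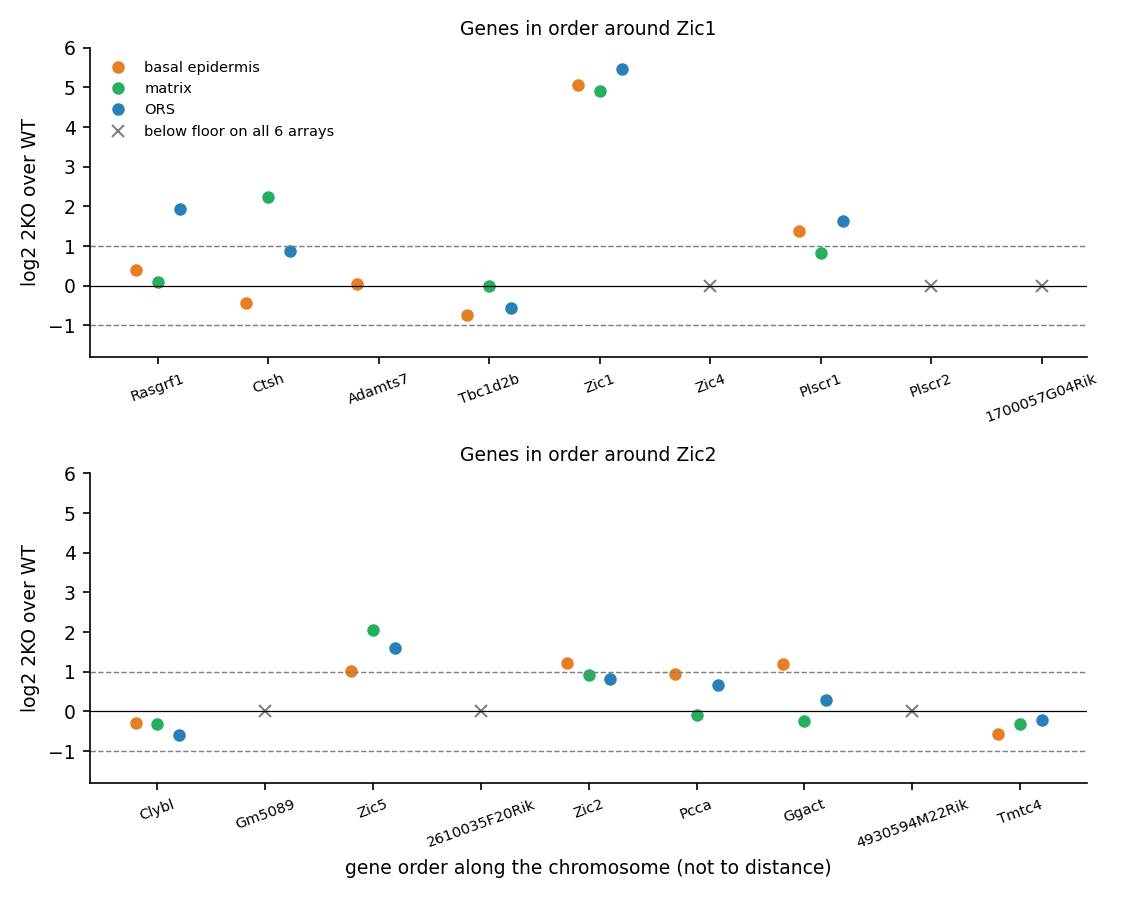
log2 of 2KO over WT for Zic1 (above) and Zic2 (below) and up to 4 genes with a probe set on either side, in gene order and not to distance, with 1 point per cell type and dashed lines at 2-fold. Zic1 stands at 4.90 to 5.45 beside Zic4, which was below the floor on all 6 arrays (cross), and Zic5 and Zic2 stand at 0.81 to 2.06 on either side of 2610035F20Rik, which was below the floor on all 6 arrays as well.

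Genes with the pattern most like Zic1 were found among 12158 genes as those with the smallest root-mean-square difference between gene-centred log2 signals over the 6 arrays, after raising signals to the floor. The nearest was Cdkn2a, at 0.35, which read 2385, 1256 and 2840 in 2KO basal epidermis, matrix and ORS, against 44.8, 55.5 and 26.4 in WT. After it came Foxd1 (0.76), Zdbf2, an imprinted gene (0.81), Calcb, which encodes a calcitonin gene-related peptide (0.82), Cpt1c, a carnitine palmitoyltransferase of neurons (0.87), Foxa1, a forkhead factor of endodermal organs (0.89), Igf2, a growth factor (0.94), and Efhd1 (0.97). Of these, Cdkn2a, Foxd1 and Zdbf2 were below the floor on all 3 WT arrays as Zic1 was, and the others were above it on at least 1. Their Pearson correlations with Zic1 ran from 0.939 to 0.997 over 6 arrays, which hold 3 of each genotype.

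Genes most like Zic2 lay at smaller distances, with 2KO over WT ratios between 1.48 and 2.57. After flooring, Zic2 itself differed by only 1.75- to 2.34-fold between genotypes, against 29.8- to 43.8-fold for Zic1. Its distances therefore cannot be set against those for Zic1. The 8 nearest were Exoc4, a subunit of the exocyst (0.063), Camkk2, a calcium-dependent kinase (0.083), Runx3, a Runt factor (0.096), Epop, a protein that binds PRC2 (0.13), Rundc3b (0.14), Otulinl (0.14), Slc35e4 (0.14) and Fxyd4 (0.14). Runx3 read 175, 156 and 123 in 2KO, against 60.2, 35.4 and 32.7 in WT, and Epop read 215, 177 and 187 in 2KO, against 47.4, 41.2 and 46.0 in WT. Both were below the floor in WT, as Zic2 was. Exoc4, by contrast, was bright in both genotypes, with 2499, 1895 and 2037 in 2KO, against 1078, 1067 and 1058 in WT. By Pearson correlation 2 of the 8 genes nearest to Zic1 and 3 of the 8 nearest to Zic2 were kept.

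**Figure D4:**
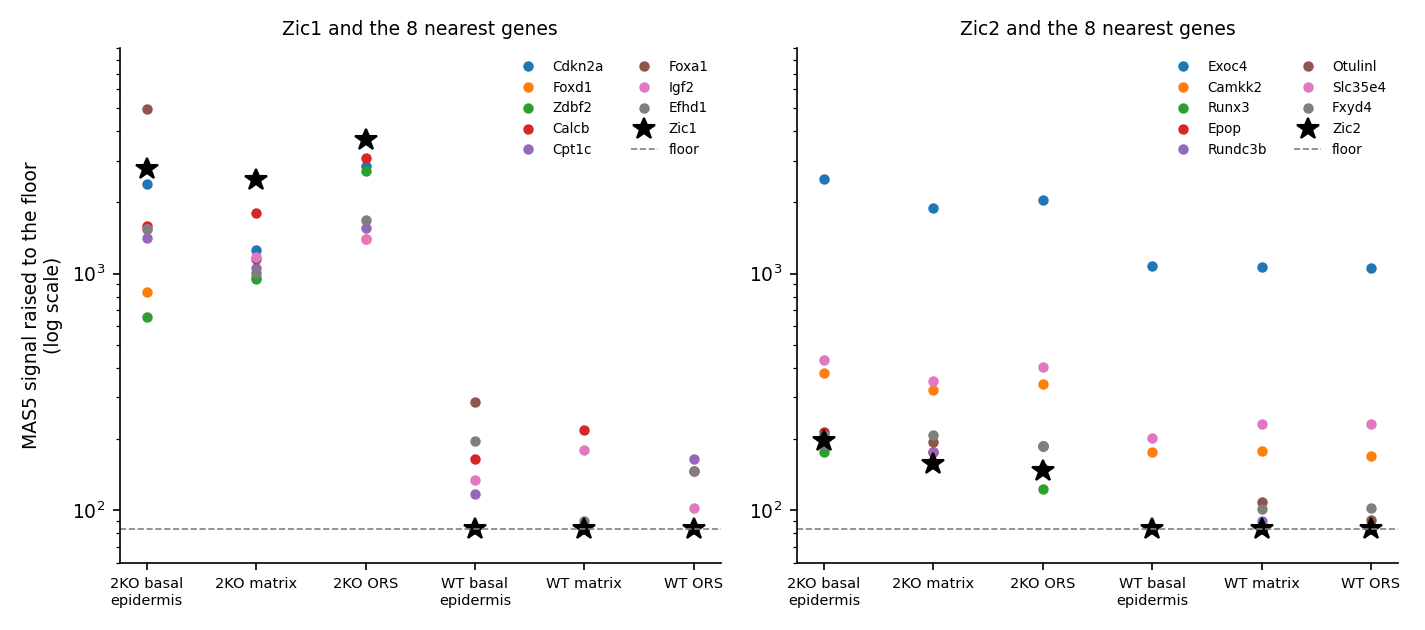
MAS5 signal raised to the floor (log scale) on the 3 2KO and 3 WT arrays for Zic1 (left, star) and Zic2 (right, star) and the 8 genes nearest to each in pattern. Zic1 reads 2490 to 3656 in 2KO and is at the floor in WT, and Zic2 reads 146 to 196 in 2KO and is at the floor in WT.

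Hedgehog pathway genes were considered next, since Zic and Gli proteins share their zinc finger type. Higher in 2KO were 2 of the 9 genes measured in basal epidermis, 2 of 9 in matrix cells and 6 of 11 in ORS cells, and 0 were lower, with median log2 ratios of 0.06, 0.47 and 1.01 beside 0.04, 0.03 and 0.01 over all measured genes. Over all measured genes, 6.59%, 9.03% and 8.17% were at least 2-fold higher in 2KO, and 4.09%, 1.62% and 4.75% were at least 2-fold lower. Gli1, a transcriptional target and effector of the pathway, read 1102 in 2KO ORS, against 179 in WT ORS, 6.17-fold higher, and 131 in 2KO basal epidermis, against 102 in WT. Glis2, a Gli-like zinc finger factor, was 3.17-, 2.26- and 2.25-fold higher in basal epidermis, matrix and ORS. Shh, the ligand, read 3185 in 2KO matrix, against 1112 in WT matrix, 2.86-fold higher. Gli2 (2.24-fold) and the receptor gene Ptch1 (2.02-fold) were higher in ORS, and Gli3 and the signal transducer Smo lay within 2-fold in all 3. A common median left 3 higher in ORS and 1 higher and 1 lower in matrix, and the hybridisation controls left 5 higher in ORS and 0 higher and 1 lower in matrix. Glis2 and Shh in matrix then had folds of 1.46 and 1.85 with the hybridisation controls, and Gli2, Glis2 and Ptch1 in ORS had 1.88, 1.89 and 1.69 with a common median. The sign of the median turned in basal epidermis under both scalings (-0.05 and -0.04) and in matrix under the second (-0.16).

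Partners and targets reported for Zic proteins in the mouse or other vertebrates held several genes higher in 2KO and 1 lower. Higher were 3 of the 7 genes measured in basal epidermis, 2 of 6 in matrix cells and 3 of 7 in ORS cells, where 1 was lower, and the medians were 0.27, 0.51 and 0.66. The shares higher over all measured genes were 6.59%, 9.03% and 8.17%, and the shares lower were 4.09%, 1.62% and 4.75%. The matrix median was -0.13 after scaling to the hybridisation controls. Pax3, a paired-box factor that acts with Zic1 at the neural plate border in Xenopus, read 238, 321 and 287 in 2KO, against 30.1, 46.9 and 12.0 in WT, and was at least 2.85-, 3.84- and 3.44-fold higher. Pax3 is thus among the 178 of 6553 genes (2.72%) below the floor on all 3 WT arrays and at or above it on all 3 2KO arrays. Ephb1, a receptor that Zic2 switches on in mouse retinal ganglion cells, read 243, 192 and 1079 in 2KO, against 38.9, 39.6 and 362 in WT, although its fold in matrix, at least 2.30, was 1.97 after scaling to the hybridisation controls. Pax3 in all 3 populations, and Ephb1 in basal epidermis and matrix, were below the floor in WT and could only be measured as higher. Mdfi, which encodes a protein that binds Zic factors, read 742, 640 and 1086 in 2KO, against 244, 341 and 271 in WT, with folds of 3.04, 1.88 and 4.01. Its relative Mdfic was 2.21-fold lower in ORS (425 in 2KO, against 940 in WT). Atoh1, Drd1, Myf5 and Wnt1 were below the floor on all 6 arrays.

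Factors of the neural plate border and neural crest, where Zic genes act in embryos, had 3 of 9 measured genes higher in basal epidermis, 3 higher and 2 lower of 9 in matrix cells, and 4 higher of 10 in ORS cells. Of all measured genes, 6.59%, 9.03% and 8.17% were higher and 4.09%, 1.62% and 4.75% lower. The medians were -0.42, -0.05 and 0.26, and the list shares Pax3, Foxd3 and Snai2 with the previous one. Msx1 read 368, 2111 and 480 in 2KO, against 130.2, 4277 and 195 in WT, with folds of 2.83 and 2.46 in basal epidermis and ORS and a 2.03-fold lower value in matrix, where loess gave a ratio of 0.508. Dlx5 read 455 in 2KO basal epidermis, against 204 in WT, and 328 in 2KO ORS, against 91.8 in WT. Sox9, which is also an ORS gene, was 12.6-fold higher in matrix (2345 in 2KO, against 186 in WT), and Msx2, also a matrix gene, was 2.78-fold lower there. On the matrix arrays the ORS markers summed to 14774 in 2KO, against 6234 in WT, and the basal epidermis markers to 41378 in 2KO, against 23156 in WT, and their part in the matrix results was not tested. Gbx2 was below the floor on all 6 arrays and Foxd3 on all but 2KO ORS, where it read 132.

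Genes of cerebellar granule neurons, a main site of Zic1, were mostly below the floor, with 4 of 8 below it on all 6 arrays, Atoh1, Barhl1, Neurod1 and Gabra6. Of those measured, higher were 0 of 2 in basal epidermis, 1 of 1 in matrix cells and 2 of 4 in ORS cells, and the medians were 0.42, 1.11 and 0.90. Beside these counts and those of the next list, 6.59%, 9.03% and 8.17% of all measured genes were higher. Of all 18193 genes, 6553 were below the floor on all 3 WT arrays and 5872 on all 3 2KO arrays. Reln, an extracellular guidance protein, read 419 in 2KO ORS, against 93.7 in WT ORS, and Meis1 had folds of 2.15 and 2.01 in matrix and ORS cells, which a common median turned into 1.78 and 1.68. Of the genes of forebrain midline development, the process disturbed by loss of Zic2, higher were 0 of 5 in basal epidermis, 3 of 6 in matrix cells and 0 of 5 in ORS cells, and the medians were -0.33, 0.91 and 0.52. Those in matrix were Shh, Gas1 (1242 in 2KO, against 349 in WT, 3.56-fold) and Cdon (352 in 2KO, against 124 in WT, 2.83-fold). After scaling to the hybridisation controls 1 was higher in matrix, Cdon and Shh had folds of 1.83 and 1.85 there, and the median was -0.06.

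Markers of other cell types that a sort could hold were read on the same arrays. For every marker list, the shares higher over all measured genes in basal epidermis, matrix and ORS were 6.59%, 9.03% and 8.17%. The shares lower were 4.09%, 1.62% and 4.75%. Merkel cell markers were higher together with Zic1, in 4 of 5 measured genes in basal epidermis, 4 of 4 in matrix cells and 4 of 4 in ORS cells. Their summed signal ranged from 1745 to 4488 in 2KO, against 249 to 851 in WT. Krt8, Krt18, Sox2 and Isl1 made up these counts, while Atoh1, the factor that specifies Merkel cells, was below the floor on all 6 arrays and Krt20 on all but 2KO basal epidermis (100). Sox2 read 509, 324 and 507 in 2KO, against 15.5, 12.3 and 17.4 in WT. Sox2 and Isl1 were below the floor on all 3 WT arrays, and Krt8 on the WT basal epidermis and matrix arrays. There these genes could only be measured as higher. Krt18, above the floor in every WT population, had folds of 7.01, 3.78 and 5.66. The part of Merkel cells in the Zic signals was not tested.

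Fibroblast markers summed to 13917, 36206 and 23354 on the 2KO basal epidermis, matrix and ORS arrays, against 17494, 20044 and 17108 in WT. Higher among these markers were 1 of 7 in basal epidermis, 6 of 7 in matrix cells and 1 of 8 in ORS cells, and the matrix count was 5 with a common median and 2 with the hybridisation controls, while in basal epidermis 0 were higher and 1 was lower under both scalings. Brown adipocyte markers were read because Zic1 is used as a marker of classical brown fat. They summed to between 636 and 1412 in 2KO, against 417 to 3184 in WT, and Ucp1 and Lhx8 were below the floor on all 6 arrays. Their counts were 1 higher of 4 measured in basal epidermis, 0 of 3 in matrix cells, and 2 higher and 1 lower of 4 in ORS cells. The lower one, Cidea, read 403 in 2KO ORS, against 2875 in WT ORS, which made up most of the highest WT sum. Those higher were Ppargc1a in basal epidermis and ORS (at least 2.46- and 2.15-fold) and Dio2 in ORS (4.75-fold).

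Higher skeletal muscle markers numbered 0 of 3, 4 of 6 and 1 of 3 measured in basal epidermis, matrix and ORS, with sums of 470 to 2979 in 2KO, against 454 to 541 in WT. The matrix count was 3 of 5 with a common median and 2 of 5 with the hybridisation controls. Nerve and Schwann cell markers were higher in 1 of 3, 3 of 4 and 1 of 6 measured genes in basal epidermis, matrix and ORS, with sums of 923 to 2062 in 2KO, against 281 to 1729 in WT, and Snap25 was below the floor throughout. Immune markers had 2 lower of 4 measured in basal epidermis, and 3 higher of 4 in matrix cells and 1 higher of 3 in ORS cells, with sums of 3883 to 4618 in 2KO, against 616 to 4513 in WT, and Cd3e was below the floor on all 6 arrays. Melanocyte markers summed to 878 to 2126 in 2KO, against 1506 to 3263 in WT, with 0 higher, and lower were 1 of 5 in basal epidermis, 1 of 6 in matrix cells and 0 of 6 in ORS cells. The hybridisation controls left 2 nerve markers higher in matrix, a common median left 1 brown adipocyte marker higher in ORS, and both scalings gave 1 melanocyte marker lower in ORS. The part of any of these cells in the Zic signals was not tested.

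**Figure D5:**
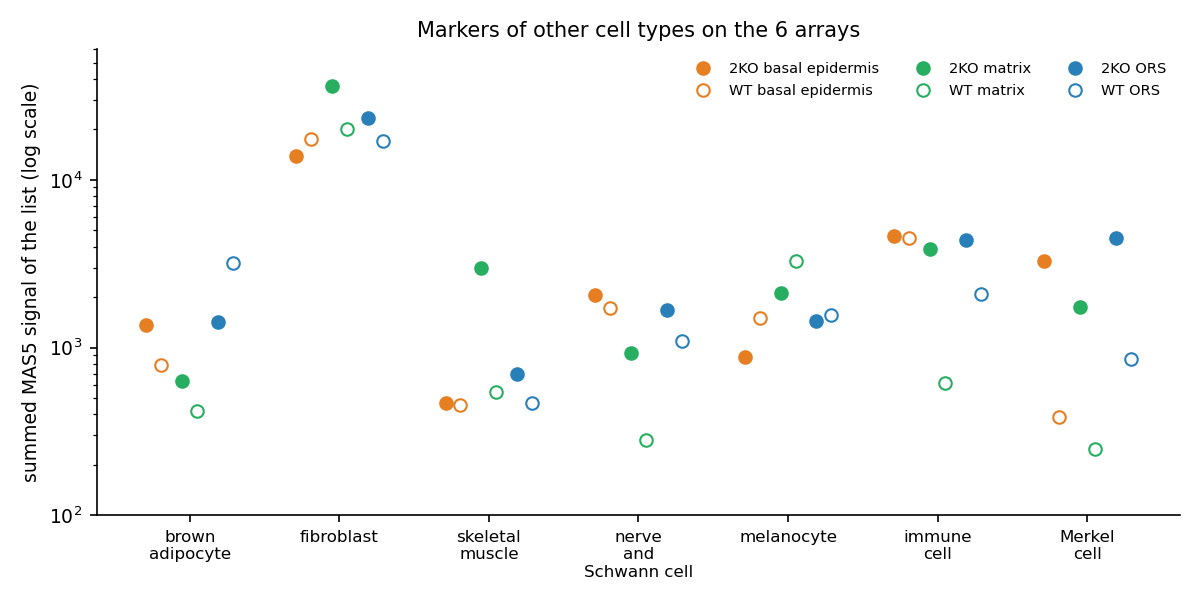
Summed MAS5 signal (log scale) of marker lists of 7 other cell types, with 1 point per array (2KO filled, WT open) in basal epidermis, matrix and ORS. The Merkel cell list lies higher in 2KO in each population (1745 to 4488, against 249 to 851 in WT), and the muscle list stands out on the 2KO matrix array (2979).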

How the data were processed

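RNA of 6 sorted samples was labelled with Affymetrix 3IVT reagents and hybridised to 1 array each, per the labels' protocols. The authors deposited MAS5 signal intensities on a linear scale (the submitters' processing notes name MAS5), without a version or detection calls in the sources used here. Each array had a 2% trimmed mean of 500.0 as deposited, and no further scaling was applied. Genes were named from the platform annotation, in which 34945 probe sets name 1 gene, 932 name several and 9160 are unnamed here, beside 64 control probe sets. A gene's value was that of the probe set whose mean log2 signal was highest, and both Zic1 probe sets are given.

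Signals below the median of all signals (83.4) were raised to it before log2 ratios of 2KO over WT were taken within a cell type with Python 3.11.15, pandas 2.3.3 and numpy 2.4.6, and genes below it in both arrays counted as not measured. No test was made within a cell type, where each genotype has 1 array, and none of genotype across the 3 cell types, on which Zic1 was picked, and the number of arrays limits the precision. The calls and the search for like patterns were tested on simulated data, with large planted changes and near copies of the Zic1 pattern. Bounds as small as those of Zic2 were not planted, so the simulated data do not test such calls. The alternatives tried were other floors, 4 scalings (common median, hybridisation controls, quantile, and loess with statsmodels 0.14.6), the mean of probe sets, and the removal of probe sets that may cross-hybridise. The genes named were Zic1 and Zic2 with all probe sets, Ezh1 and Ezh2, members of the fixed lists, up to 4 neighbours on either side and the 8 nearest in pattern. The members, lists and rules were chosen with earlier results of these data known. The genes ranked by their smallest fold bound were named after their values were seen.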

Additional observations from a re-analysis of the deposited data

How the results depend on the processing

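Zic1 was at least 2-fold higher in 2KO under all 27 alternatives (9 in each of 3 populations), and Zic2 in basal epidermis under all 8 that gave it a value. Some of these could not change the value, and Zic1 was picked on this contrast. The probe sets of both genes are not of the kind that may cross-hybridise, so removing that kind left them as they were. The mean of probe sets equals the main value for Zic2, which has 1. Under the 4 scalings the Zic1 folds in basal epidermis, matrix and ORS moved by less than 1.5 times. The floor set their size. A floor set at the 25th percentile (21.2) and no floor both gave Zic1 as 58.3-, 103.3- and 115.8-fold higher, the 75th percentile (466.5) as 5.95-, 5.34- and 7.84-fold, and the mean of its probe sets as 12.8-, 11.6- and 18.5-fold. Zic2 was 9.21-, 7.41- and 6.87-fold higher with the 25th percentile and 35.1-, 44.8- and 59.7-fold without a floor, so that matrix and ORS then passed 2-fold. With the 75th percentile both genotypes were below the floor for Zic2 and gave no value. Folds without a floor divide by WT signals that have no reliable order.

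The number of genes at least 2-fold higher in 2KO basal epidermis, matrix and ORS (760, 1052 and 979) was 1637, 2147 and 1834 at the 25th percentile, 234, 310 and 336 at the 75th and 2796, 3320 and 2878 without a floor. The number lower (471, 189 and 569) was 827, 434 and 933, then 235, 78 and 282, then 1727, 1276 and 1722. With a common median 639 were higher in ORS, and 574 and 1002 were lower in matrix and ORS. With the hybridisation controls 463 were higher and 2130 lower in matrix. Under these 2 scalings the median log2 ratio over measured genes was -0.07, -0.24 and -0.24, and -0.06, -0.58 and -0.14. The cause of the other differences was not tested. The labels give no replicate numbers, so no replicate block could be set. A paired fit of genotype over the 3 cell types was left out and not run. Signals near or below the floor limit what can be said of Zic2, Zic4 and Zic5.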
